A study of Drosophila melanogaster with 9 samples.

Results

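The Myc network and the machinery of RNA polymerases I and III were followed through 9 genes in Drosophila S2 cells, a cultured line with hemocyte-like properties. The 9 genes were taken by name from the deposited table: the Myc gene, which the table calls dm (FBgn0262656), its partners and antagonist Max and Mnt, the polymerase I factor Tif-IA, the polymerase I subunits RpI1, RpI135 and RpI12, the polymerase III subunit RpIII128 and the polymerase III factor Brf. All 9 were found among 13937 genes, and all 9 passed the filter on low counts that left 8981 genes to test. They were chosen by their function, but with earlier results of these data known, as were the lists set beside them. Counts over these genes and lists are therefore descriptions.

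RNA-seq counts per gene came from 9 libraries of polyadenylated RNA. After 16 h in medium lacking serum, S2 cells received 100 nM recombinant DILP5, 100 nM synthetic DILP2 or the dilute acid vehicle for 1 h, with 3 libraries of each, lettered A, B and C. Serum deprivation was thus common to the 3 groups, and no library came from fed cells. DILP2 and DILP5 are Drosophila insulin-like peptides, and the question was how the transcriptional responses to these ligands compare. Nothing in the labels says that the libraries of a group came from separate cultures, so the p-values measure only the spread between these libraries, which may be technical.

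Myc is a basic helix-loop-helix zipper protein that binds DNA as a dimer with Max and activates genes needed for growth, above all those for making ribosomes. Mnt also pairs with Max, competes with Myc for it and represses transcription. Polymerase I makes the large ribosomal RNA precursor with the help of Tif-IA, and polymerase III makes transfer RNAs and 5S ribosomal RNA with the help of Brf. In flies, insulin signalling and Myc both promote ribosome synthesis, and Drosophila Myc is known to raise mRNAs for polymerase I subunits.

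The libraries held from 28365854 to 38557706 counts, and values are given as CPM, read counts per 1000000 of the library total after TMM, a correction for composition. The 9 genes were covered by 199 to 16843 counts per library, so counting error ran from 0.771% for Myc to 7.09% for RpI12. Of 8 markers of hemocyte-like cells, srp (294 to 395 CPM), ush, Cg25C and vkg were abundant, while Hml and eater lay under 6 CPM and nimC1 was at or near 0. The summed level of the 8 was 1667 to 1828 CPM with DILP5, 1671 to 1877 CPM with DILP2 and 1748 to 1922 CPM with vehicle. Markers of other cell types summed to 65.7 to 73.4 CPM with DILP5, 68.9 to 73.7 CPM with DILP2 and 65.8 to 73.7 CPM with vehicle, nearly all of it elav, while Mhc, Lsp1beta, Lsp2 and vas stayed under 1 CPM. Of the 7 hemocyte markers tested, srp and ush fell with both ligands at an adjusted p under 0.05 in edgeR. Of all genes tested, 6.78% fell with DILP5 and 5.59% with DILP2. The part of srp and ush in the results was not tested.

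The polymerase I subunits RpI1, RpI135 and RpI12 rose with both ligands, Myc was higher on average without passing the test, and Max, Mnt, Tif-IA, RpIII128 and Brf did not pass the test in either direction. With DILP5, 3 of the 9 genes rose and 0 fell against vehicle by edgeR's quasi-likelihood test with an adjusted p under 0.05, where 6.28% of all genes tested rose and 6.78% fell. With DILP2 the same count was 3 higher and 0 lower, where 5.33% of all genes tested rose and 5.59% fell, and the 3 genes were RpI1, RpI135 and RpI12 each time. Both comparisons use the same vehicle libraries. In bulk samples such as these, fewer cells of a type and less RNA per cell cannot be told apart. Without adjustment, at p under 0.05 in edgeR, RpI1, RpI135 and RpI12 lay above vehicle after DILP5, and 0 of the 9 lay below. After DILP2, 4 of the 9 lay above vehicle at that cut, Myc being the addition, and 1, Max, lay below. The percentages of all genes tested given so far use the adjusted p and are no background for these counts. By the simple criterion that the libraries of the groups did not overlap, 3 of the 9 genes were higher with DILP5 (16.2% of all genes tested) and 5 of the 9 with DILP2 (14.3%), the added pair being Myc and RpIII128.

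**Figure D1:**
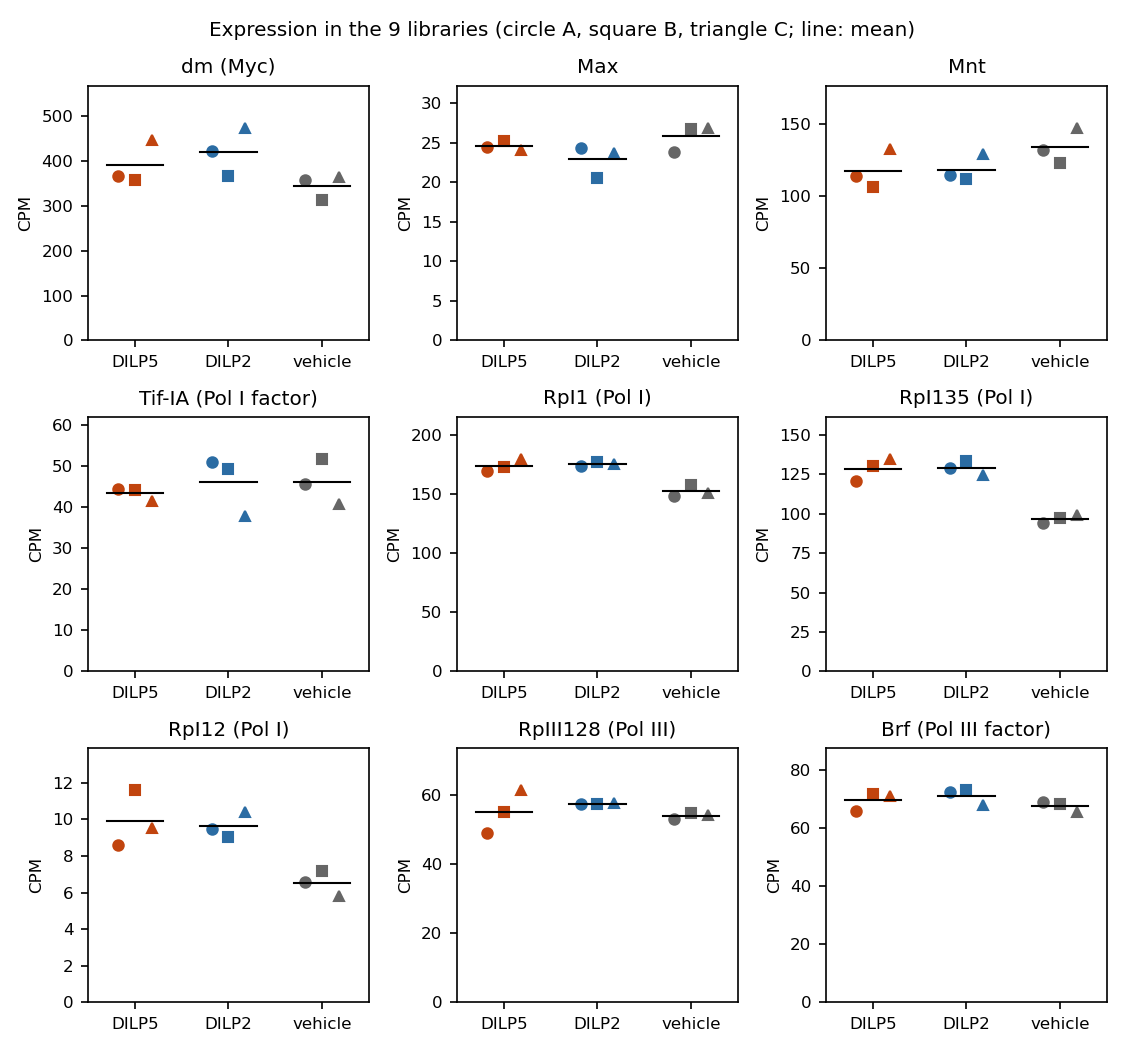
Expression of the 9 genes in CPM (vertical axes, from 0) in the 3 libraries each of DILP5, DILP2 and vehicle. Points are single libraries with the letters A, B and C as symbols, and lines are group means. RpI1, RpI135 and RpI12 lie above the vehicle libraries in all 6 libraries with a ligand, while RpIII128 and Brf lie close to them.

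Myc had the highest level of the 9 genes in CPM per exonic kilobase. It had 366, 358 and 446 CPM in DILP5 libraries A, B and C, 422, 367 and 473 CPM in DILP2 libraries A, B and C, and 357, 314 and 364 CPM in vehicle libraries A, B and C. Library C was the highest and library B the lowest in each group. The 3 DILP2 libraries lay above the 3 vehicle libraries by a narrow margin, and the DILP5 libraries overlapped them. The means were 390.1 ± 48.6 CPM with DILP5, 420.5 ± 53.0 CPM with DILP2 and 345 ± 26.9 CPM with vehicle (SD, n = 3 each).

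The log2 difference of Myc from vehicle was 0.18 with DILP5 (SE 0.10, 95% interval -0.04 to 0.40) and did not pass edgeR's test (adjusted p = 0.290). It was 0.071 without DILP5 library C and 0.12 without vehicle library B. With DILP2 it was 0.29 (SE 0.10, interval 0.06 to 0.51), again short of the threshold in edgeR's test (adjusted p = 0.0965). The DILP2 difference was past the threshold in DESeq2 (adjusted p = 0.0299), after removal of a trend on gene length (0.0157), and when DILP5 library C (0.0442) or DILP2 library B (0.0485) was left out of the edgeR fit. Over the 10 settings that leave libraries out it ran from 0.19 to 0.38. In 8 of them it did not pass (edgeR adjusted p up to 0.268). With the replicate letter as a block, a pairing that the labels do not state, Myc passed with both ligands. In the current annotation 40.9% of the exonic bases of Myc overlap CG12535 on the other strand, which held only 13 to 31 counts per library. On the same strand 20.3% overlap lncRNA:CR44999, which has no counts of its own in the deposited data, so the counts of Myc are uncertain.

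Max, the dimer partner of Myc, did not pass the test with either ligand. It had 24.5, 25.3 and 24.1 CPM in DILP5 libraries A, B and C, 24.3, 20.5 and 23.7 CPM in DILP2 libraries A, B and C, and 23.8, 26.7 and 26.8 CPM in vehicle libraries A, B and C. The groups overlapped. Its log2 difference from vehicle was -0.07 with DILP5 (SE 0.07, edgeR adjusted p = 0.607). With DILP2 it was -0.17 (SE 0.07, edgeR adjusted p = 0.172). Max shares 14.1% of its exonic bases with CG9666 (993 to 1299 counts per library) and 16.0% with Bet1 (930 to 1364), both on the other strand, so its values are uncertain.

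Mnt, the repressor that competes for Max, was lower on average with both ligands and did not pass the test. It had 114, 106 and 132 CPM in DILP5 libraries A, B and C, 114, 112 and 129 CPM in DILP2 libraries A, B and C, and 132, 123 and 147 CPM in vehicle libraries A, B and C. As for Myc, library B was the lowest and library C the highest of each group, and the spread between letters was wider than the difference between groups. The log2 difference from vehicle was -0.19 with DILP5 (SE 0.09, interval -0.38 to 0.0036, edgeR adjusted p = 0.190). With DILP2 it was -0.18 (SE 0.09, interval -0.37 to 0.01, edgeR adjusted p = 0.236). Without DILP5 library C the DILP5 difference passed edgeR's test (adjusted p = 0.0390), and it also did so without the 3 libraries lettered C (0.0331). In 8 of the 10 settings that leave libraries out it did not pass (edgeR adjusted p up to 0.508). With the replicate letter as a block, which the labels do not state as a pairing, Mnt passed with both ligands.

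The ratio of Myc to Mnt within each library was examined after these values had been seen. It was 3.21, 3.38 and 3.37 in DILP5 libraries A, B and C, 3.70, 3.28 and 3.67 in DILP2 libraries A, B and C, and 2.70, 2.56 and 2.48 in vehicle libraries A, B and C. All 6 libraries with a ligand lay above all 3 vehicle libraries. The log2 ratio differed from vehicle by 0.36 with DILP5 and by 0.46 with DILP2. The exact two-sided permutation p was 0.1 for each, which is the smallest that 3 libraries against 3 can give, so this comparison cannot pass 0.05. The ratio of Myc to Max was higher than vehicle in the 3 DILP2 libraries, by 0.46 on the log2 scale (exact permutation p = 0.1), and overlapped vehicle with DILP5, where it differed by 0.24 (exact permutation p = 0.3).

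A further 16 genes were listed as partners or regulators of Myc. With DILP5, 1 of 16 rose and 1 fell, close to the 6.28% and 6.78% of all genes tested that did. At an unadjusted p under 0.05 in edgeR, 2 of the 16 were higher and 6 lower with DILP5, and 4 were higher and 4 lower with DILP2. The shares of all genes given above are for the adjusted p. They cannot be set against these unadjusted counts, for which no share is given here. The riser was rept, a helicase that binds Myc with Pontin, at 121 ± 0.230 CPM with DILP5 and 109 ± 1.77 CPM with vehicle (SD, n = 3 each), a log2 change of 0.15 (edgeR adjusted p = 0.0289). Tip60, a histone acetyltransferase of the complex that also holds these helicases, fell with both ligands. It averaged 25.4 ± 1.57 CPM with DILP5, 25.3 ± 1.34 CPM with DILP2 and 29.9 ± 0.877 CPM with vehicle (SD, n = 3 each). Its log2 change was -0.23 with DILP5 (edgeR adjusted p = 0.0328) and -0.24 with DILP2 (0.0316), although it shares 15.6% of its exonic bases with CG4857 on the other strand. This was the one call of the 16 with DILP2, where 5.33% of all genes tested rose and 5.59% fell.

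The number of partners called moved with the setting in both directions, and was 3 in DESeq2 and 5 with the length trend removed for each ligand. With DILP5 it was 0 when any one of DILP5 libraries A and C or vehicle libraries A, B and C was left out, and 1 without DILP5 library B. With DILP2 it was 0 without DILP2 library A or B or vehicle library B or C, and 2 without DILP5 library A or C. Mio and bigmax, the fly relatives of the sugar sensor ChREBP and its partner Mlx, came next in order. The difference of Mio with DILP2 was -0.16 on the log2 scale (edgeR adjusted p = 0.0529), and that of bigmax with DILP5 was -0.21 (0.0583).

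Genes of ribosome biogenesis that Myc is known to activate were listed beside them. All 10 rose with DILP5 and all 10 with DILP2, where 6.28% and 5.33% of all genes tested rose. The median log2 change of the 10 was 0.40 with DILP5 and 0.36 with DILP2, beside -0.0019 and -0.0022 over all genes tested. Nop60B, the pseudouridine synthase of box H/ACA particles, averaged 429 ± 0.812 CPM with DILP5, 430.4 ± 10.7 CPM with DILP2 and 312 ± 2.44 CPM with vehicle (SD, n = 3 each), and nop5, a core protein of box C/D particles, averaged 409 ± 7.72, 409.7 ± 11.4 and 284 ± 11.3 CPM in the same order. Their log2 changes were 0.46 and 0.53 with DILP5, and 0.46 and 0.53 with DILP2. The list was drawn up with earlier results of these data known, so its count is a description.

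**Figure D2:**
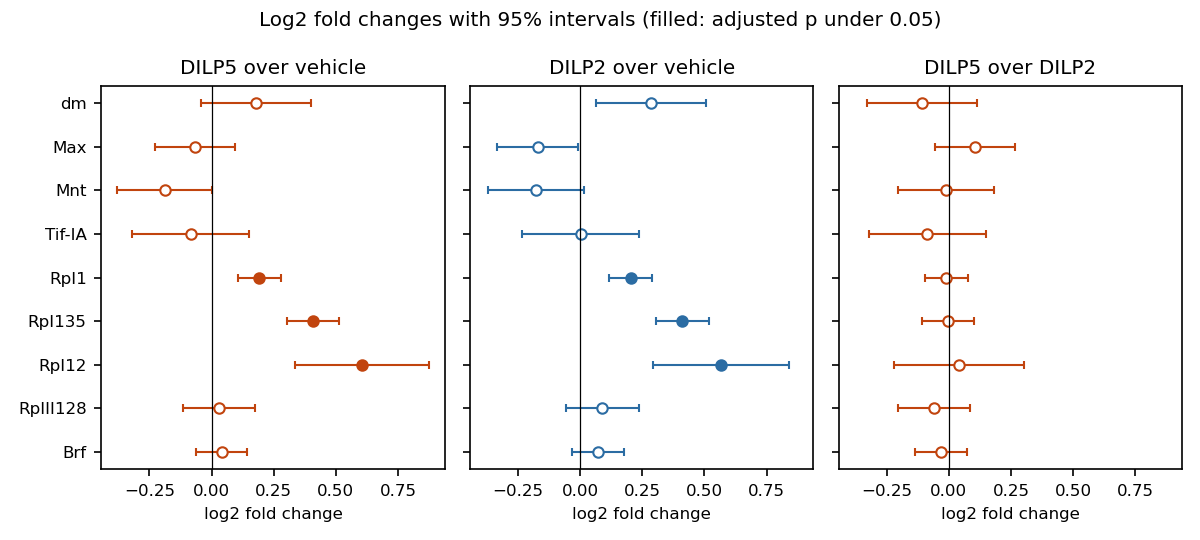
Log2 fold changes of the 9 genes (horizontal axes) for DILP5 over vehicle, DILP2 over vehicle and DILP5 over DILP2, with bars for the 95% intervals of the edgeR fit. Filled points have an adjusted p under 0.05, which holds for RpI1, RpI135 and RpI12 with each ligand and for no gene between the ligands.

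Tif-IA, the factor that recruits polymerase I to ribosomal DNA, did not pass the test with either ligand. It had 44.5, 44.0 and 41.4 CPM in DILP5 libraries A, B and C, 51.0, 49.3 and 37.8 CPM in DILP2 libraries A, B and C, and 45.7, 51.6 and 40.7 CPM in vehicle libraries A, B and C. Library C was the lowest in each group, where it was the highest for Myc, and the groups overlapped. The log2 difference from vehicle was -0.08 with DILP5 (SE 0.11, interval -0.32 to 0.15, edgeR adjusted p = 0.659) and 0.0014 with DILP2 (SE 0.11, interval -0.23 to 0.24, edgeR adjusted p = 0.997). The DILP2 interval includes the log2 change of 0.20 seen for RpI1, while the DILP5 interval ends below the 0.19 seen for RpI1 with that ligand. The DILP5 interval of RpI1 itself, 0.10 to 0.28, overlaps that of Tif-IA. A difference between these genes was not tested.

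RpI1 encodes the largest subunit of polymerase I and part of its catalytic centre. It had 169, 173 and 180 CPM in DILP5 libraries A, B and C, 174, 177 and 175 CPM in DILP2 libraries A, B and C, and 148, 158 and 151 CPM in vehicle libraries A, B and C. Neither ligand group overlapped vehicle, and the ligand groups overlapped each other. The rise was 1.14-fold with DILP5 (log2 0.19, SE 0.04, edgeR adjusted p = 0.00929) and 1.151-fold with DILP2 (log2 0.20, SE 0.04, edgeR adjusted p = 0.00864).

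RpI135, the second largest subunit, which completes the catalytic centre, lay further from vehicle. It had 121, 131 and 135 CPM in DILP5 libraries A, B and C, 129, 133 and 125 CPM in DILP2 libraries A, B and C, and 94.3, 97.3 and 99.2 CPM in vehicle libraries A, B and C. The gap between vehicle and each ligand was wider than the spread within any group, and the ligand groups overlapped each other. The rise was 1.33-fold with each ligand, at a log2 change of 0.41 (SE 0.05) with DILP5 (edgeR adjusted p = 2.931e-04) and 0.41 (SE 0.05) with DILP2 (3.084e-04). RpI1 and RpI135 stayed past the threshold with both ligands under every alternative that was run.

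RpI12, a small subunit that takes part in RNA cleavage, had the largest fold change of the 9 genes and the fewest counts. It had 8.60, 11.6 and 9.50 CPM in DILP5 libraries A, B and C, 9.45, 9.02 and 10.4 CPM in DILP2 libraries A, B and C, and 6.59, 7.16 and 5.79 CPM in vehicle libraries A, B and C. Neither ligand group overlapped vehicle, and the ligand groups overlapped each other. The rise was 1.52-fold with DILP5 (log2 0.61, SE 0.12, edgeR adjusted p = 0.00837) and 1.48-fold with DILP2 (log2 0.57, SE 0.12, edgeR adjusted p = 0.0148).

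Gene length moved with these fold changes. Across the 8608 genes tested that have an exonic length, longer genes tended to have lower log2 fold changes, with a Spearman rho of -0.236 for DILP5 and -0.196 for DILP2 as a description over genes. RpI12 has 530 exonic bases, RpI135 has 3564, RpI1 has 5078 and Myc has 9170. With the length trend removed, the log2 change of RpI12 was 0.49 with DILP5 (edgeR adjusted p = 0.0382) and 0.47 with DILP2 (0.0519), so its DILP2 call was lost. It was also lost without vehicle library C (adjusted p = 0.0675) and without the 3 libraries lettered C (0.0896).

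The other subunits of polymerase I were added from a list matched through the annotation. Of the 7 subunits tested, 5 rose with each ligand and 0 fell, with a median log2 change of 0.34 with DILP5 and 0.28 with DILP2. Of all genes tested, 6.28% rose with DILP5 and 5.33% with DILP2, with medians of -0.0019 and -0.0022. Besides the 3 described, CG3756 (Polr1C) averaged 40.3 ± 1.29 CPM with DILP5, 40.3 ± 1.89 CPM with DILP2 and 28.6 ± 2.18 CPM with vehicle (SD, n = 3 each). CG18600 (Polr1E) averaged 37.5 ± 2.66 CPM with DILP5, 36.0 ± 1.48 CPM with DILP2 and 29.7 ± 2.21 CPM with vehicle. Their log2 changes were 0.50 and 0.34 with DILP5, and 0.50 and 0.28 with DILP2, and the 4 values passed edgeR's test. Polr1C also belongs to polymerase III but was counted only with polymerase I.

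The remaining subunits, l(2)37Cg (Polr1D) and CG13773 (Polr1F), had log2 differences of 0.20 and 0.23 with DILP5 and of 0.12 and 0.11 with DILP2, and did not pass. Of the 4 polymerase I factors listed, Tif-IA among them, 0 rose and 1 fell with DILP5, where 6.28% of all genes tested rose and 6.78% fell. With DILP2 0 of the 4 passed, where 5.33% of all genes tested rose and 5.59% fell. The gene that fell with DILP5 was udd (CG18316), a fly factor needed for ribosomal DNA transcription and named here after its values were seen. It averaged 63.4 ± 0.539 CPM with DILP5, 73.1 ± 6.26 CPM with DILP2 and 83.9 ± 4.32 CPM with vehicle (SD, n = 3 each). The log2 change was -0.40 with DILP5 (edgeR adjusted p = 0.00139) and the difference was -0.20 with DILP2 (0.0548). The difference between the ligands, -0.21 on the log2 scale, did not pass (edgeR adjusted p = 0.9998). A transposon copy on the same strand takes 33.3% of its exonic bases, so its counts are uncertain. The number of polymerase I subunits and factors called with DILP2, 5 of 11, was 3 without vehicle library C and 6 in DESeq2.

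**Figure D3:**
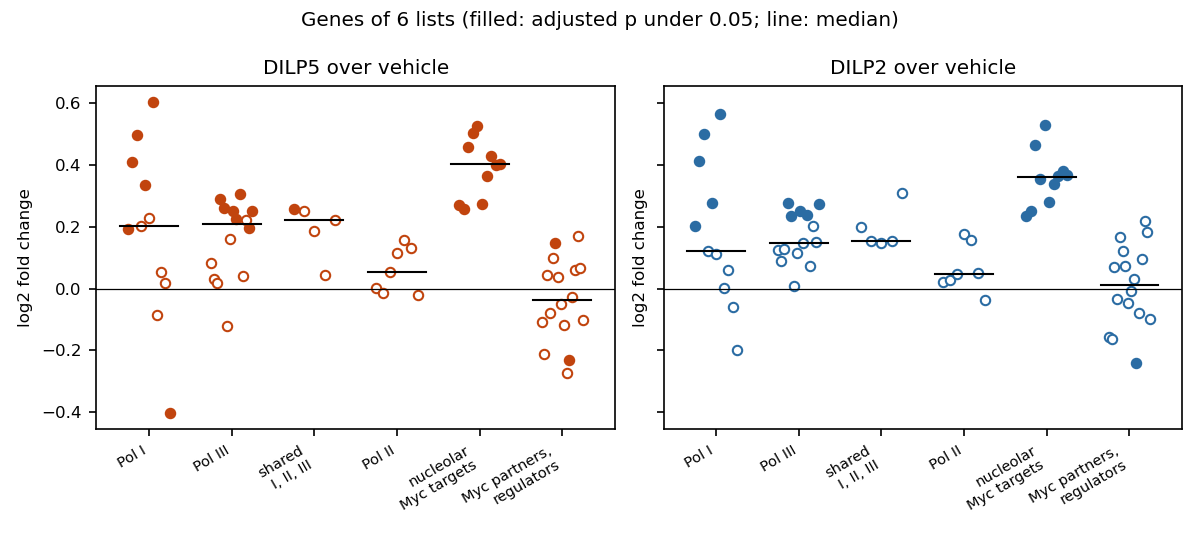
Log2 fold changes (vertical axis) over vehicle with DILP5 (left) and DILP2 (right) of genes in 6 lists along the horizontal axis. Each point is a gene, filled where the adjusted p is under 0.05, and lines are list medians. All 10 nucleolar Myc targets are filled in both panels, with 5 of 7 polymerase I subunits (drawn with 4 factors).

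RpIII128, the second largest subunit of polymerase III and the counterpart of RpI135, had a much smaller difference from vehicle. It had 48.9, 55.1 and 61.2 CPM in DILP5 libraries A, B and C, 57.4, 57.2 and 57.5 CPM in DILP2 libraries A, B and C, and 52.9, 54.8 and 54.2 CPM in vehicle libraries A, B and C. The DILP5 libraries spanned the vehicle libraries, and the DILP2 libraries lay closely together just above them. The log2 difference from vehicle was 0.03 with DILP5 (SE 0.07, interval -0.12 to 0.18, edgeR adjusted p = 0.820) and 0.09 with DILP2 (SE 0.07, interval -0.06 to 0.24, edgeR adjusted p = 0.452). Both upper bounds lie under the lower bound of the interval of RpI135, which was 0.30 with DILP5 and 0.31 with DILP2.

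Brf, the subunit of factor TFIIIB that places polymerase III on its promoters, was also close to vehicle. It had 65.7, 71.6 and 71.0 CPM in DILP5 libraries A, B and C, 72.2, 72.9 and 67.9 CPM in DILP2 libraries A, B and C, and 68.9, 68.1 and 65.6 CPM in vehicle libraries A, B and C. The groups overlapped. The log2 difference was 0.04 with DILP5 (SE 0.05, interval -0.06 to 0.14, edgeR adjusted p = 0.625) and 0.07 with DILP2 (SE 0.05, interval -0.03 to 0.18, edgeR adjusted p = 0.379).

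Other genes of polymerase III did rise. Of the 10 subunits tested, 5 rose and 0 fell with DILP5, and 4 rose and 0 fell with DILP2, with medians of 0.19 and 0.14 on the log2 scale, where 6.28% of all genes tested rose with DILP5 and 5.33% with DILP2. CG5147 (Polr3D) averaged 51.4 ± 0.512 CPM with DILP5, 50.9 ± 0.776 CPM with DILP2 and 42.0 ± 1.77 CPM with vehicle (SD, n = 3 each), a log2 change of 0.29 with DILP5 and 0.28 with DILP2. Sin (Polr3E) changed by 0.26 with DILP5 and 0.23 with DILP2. CG33785 (Polr3K) changed by 0.31 with DILP5 and 0.24 with DILP2, but all of its exonic bases also belong to CG33786, so its reads cannot be assigned to it alone.

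Rcp (Polr3I) passed with DILP5 at a log2 change of 0.22 (edgeR adjusted p = 0.0448) and not with DILP2, where the difference was 0.15 (0.191). It shares 35.8% of its exonic bases with CG9099 on the other strand. CG17209 (Polr3A), the largest subunit and the counterpart of RpI1, had a log2 difference of 0.08 with DILP5 (edgeR adjusted p = 0.242) and 0.12 with DILP2 (0.0890). CG12267 (Polr3C), CG5380 (Polr3F) and CG33051 (Polr3G) had differences from -0.12 to 0.16 with DILP5 and from 0.0095 to 0.13 with DILP2, and none of the 3 passed with either ligand.

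Of the polymerase III factors, La, which binds the ends of new polymerase III transcripts, rose with both ligands. It averaged 339 ± 11.03 CPM with DILP5, 345 ± 7.73 CPM with DILP2 and 285 ± 10.5 CPM with vehicle (SD, n = 3 each), a log2 change of 0.25 with DILP5 and 0.27 with DILP2. CG9305 (Bdp1), which like Brf belongs to TFIIIB, rose with DILP5 by 0.20 on the log2 scale (edgeR adjusted p = 0.0232) and had a difference of 0.15 with DILP2 (0.0759). La and Bdp1 were named after their values were seen. The number of polymerase III genes called, subunits and factors together, was 7 of 14 with DILP5, and was 4 without DILP5 library A or vehicle library A and 3 without DILP5 library B or vehicle library C. With DILP2 it was 5 of 14, was 2 without vehicle library A, and was 3 without DILP2 library A, B or C, vehicle library C or DILP5 library B. With library size only as the scaling it was 4 with DILP5 and 3 with DILP2.

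Subunits that the 3 polymerases share, and those of polymerase II alone, were set beside these. Among 5 shared subunits, 1 rose with DILP5 and 0 with DILP2. All 5 had log2 differences above 0 with each ligand, with medians of 0.22 with DILP5 and 0.15 with DILP2. At an unadjusted p under 0.05 in edgeR, 4 of the 5 were higher with DILP5, a cut for which no share of all genes is given. The riser was Rpb5, with a log2 change of 0.26 with DILP5 (edgeR adjusted p = 0.0145) and a difference of 0.20 with DILP2 (0.0505). The DILP5 call of Rpb5 was lost without DILP5 library A, vehicle library A or vehicle library C. With DILP2, 2 of the shared subunits had an unadjusted p under 0.05 in edgeR, DESeq2 called 2, and edgeR called 1 with DESeq2's size factors, with no filter, with a minimum of 10 counts per library, and without DILP2 library C or vehicle library B. Of 7 subunits of polymerase II, 0 passed with either ligand in edgeR or under any alternative, DESeq2 included, and 0 had an unadjusted p under 0.05 in edgeR. DILP5 raised 6.28% and lowered 6.78% of all genes tested, and DILP2 raised 5.33% and lowered 5.59%, so a count of 0 among 7 is near the background and is no result about polymerase II. The median log2 difference of these 7 polymerase II subunits was 0.05 with DILP5 and 0.05 with DILP2.

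Ratios within a library set the polymerase I subunits against RpIII128 with the same depth on both sides. RpI135 over RpIII128 was 2.47, 2.37 and 2.20 in DILP5 libraries A, B and C, 2.25, 2.33 and 2.16 in DILP2 libraries A, B and C, and 1.78, 1.78 and 1.83 in vehicle libraries A, B and C. The log2 ratio differed from vehicle by 0.38 with DILP5 and by 0.32 with DILP2, with no overlap. RpI1 over RpIII128 differed by 0.17 with DILP5 and by 0.11 with DILP2, again with no overlap.

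The ratio within the catalytic pair of polymerase I was also set out by library. RpI135 over RpI1 was 0.713, 0.753 and 0.749 in DILP5 libraries A, B and C, 0.742, 0.753 and 0.711 in DILP2 libraries A, B and C, and 0.637, 0.615 and 0.657 in vehicle libraries A, B and C. The log2 ratio differed from vehicle by 0.21 with each ligand, and the 6 libraries with a ligand lay above the 3 with vehicle. The exact permutation p was 0.1 for each of these polymerase ratios against vehicle, the smallest the design allows. In all, 5 ratios were computed, all chosen after the values of the genes were seen.

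**Figure D4:**
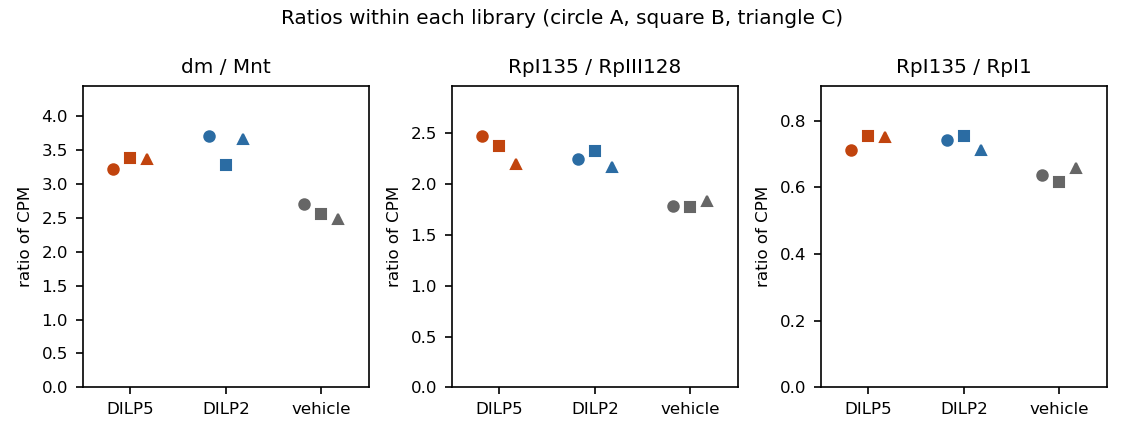
Ratios of CPM between a pair of genes in each library (vertical axes, from 0) for Myc (dm) over Mnt, RpI135 over RpIII128 and RpI135 over RpI1, in DILP5, DILP2 and vehicle libraries with the letters as symbols. In each panel the 6 libraries with a ligand lie above the 3 vehicle libraries, and the ligands overlap each other.

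The ligands were then compared with each other. No gene of the 8981 differed between DILP5 and DILP2 by edgeR's test (0.0% called), with 208 genes at an unadjusted p under 0.05, and DESeq2 also called 0. Among the 9 genes the smallest unadjusted p was 0.179, and none of the 9 had groups without overlap, as 6.1% of all genes tested did. The log2 difference, DILP5 over DILP2, was -0.0029 for RpI135 (95% interval -0.11 to 0.10) and -0.01 for RpI1 (-0.10 to 0.08). It was -0.11 for Myc (-0.33 to 0.11) and 0.04 for RpI12 (-0.22 to 0.30), which are the widest intervals here together with that of Tif-IA (-0.32 to 0.15). Over the 9 genes the intervals ran from -0.33 to 0.30, and those of RpI1 and RpI135 were the narrower ones given above.

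Levels can be set between genes only per length, for which CPM was divided by exonic kilobases. On this scale Myc remained first in each group, at 42.5 CPM per kb with DILP5, 45.9 with DILP2 and 37.6 with vehicle, above its nearest neighbour without overlap. Its rank among the genes tested was less extreme than by CPM, since it lay in the top 21.8% per kb and in the top 5.65% by CPM. In vehicle cells RpI1 (30.02 CPM per kb), Mnt (29.4) and RpI135 (27.2) followed, with neighbours overlapping. With DILP5 the order was RpI135 (36.1 CPM per kb), RpI1 (34.3) and Mnt (25.8), and with DILP2 it was RpI135 (36.2), RpI1 (34.5) and Mnt (25.96), where RpI135 and RpI1 overlapped with DILP5 and not with DILP2.

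The lower part of the order also shifted at RpI12. It was last in vehicle cells at 12.3 CPM per kb, below RpIII128 at 15.3 without overlap. With DILP5 it stood at 18.7 and overlapped RpIII128 at 15.6, and with DILP2 it stood at 18.1, above RpIII128 at 16.2 without overlap. Brf, Tif-IA and Max had means from 19.1 to 23.3 CPM per kb with DILP5, from 17.7 to 23.9 with DILP2 and from 20.0 to 22.7 with vehicle.

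The genes whose log2 CPM followed Myc most closely over the 9 libraries were CG4165 (Usp16-45), with a Pearson r of 0.956, Psi with 0.948, Top1 with 0.947, CG9263 with 0.947 and Hex-A with 0.931. Psi is also among the 16 genes listed as partners or regulators of Myc. The other members of the 9 chosen genes ranked far lower, with r from -0.568 for Tif-IA to 0.597 for RpI135. Between these, r was 0.589 for RpI1, 0.58 for RpIII128, 0.508 for RpI12, 0.205 for Brf, 0.165 for Mnt and -0.301 for Max. RpI135 was followed most closely by CG5728 (Rrp5) with r of 0.990, CG9281 with 0.986, CG5525 (CCT4) with 0.983, CG3071 with 0.982 and Pi3K21B with 0.981. RpI1 ranked 35th for RpI135 (0.969) and RpI12 350th (0.877). These correlations are descriptions over libraries that share groups, letters and depth.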

How the data were processed

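Counts from 9 libraries of S2 cells, 3 for each of 3 groups, were used. Single-end reads had been aligned to dm3 by Tophat and Bowtie, and easyRNASeq gave the raw counts per gene that the authors deposited, unnormalized and per replicate. Versions, annotation, strand and the handling of reads with several matches are not given in the sources used here, so overlapping genes and near-identical copies are uncertain.

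The tools were R 4.3.3 with edgeR 4.0.16, DESeq2 1.42.0 and limma 3.58.1. All 9 libraries were fitted together without a block, after filterByExpr (8981 genes) and TMM, with edgeR's quasi-likelihood test, and p-values were adjusted over all genes by Benjamini-Hochberg at a threshold of 0.05. The biological coefficient of variation was 6.29%. CPM are counts per 1000000 of the library total after TMM, and their log2 values for likeness of pattern had 2 as the prior count. The fit was tested on simulated data. The BDGP6 annotation gave exonic lengths through gene IDs (13389 of 13937) and exon overlaps. Its build differs from dm3, so no coordinates are given. No sequence was used here, and the planned search of promoters for motifs was not run.

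The genes and lists were chosen with earlier results of these data known. All 9 genes and the polymerase I and III subunits are named, except an item that is not reported here, of other lists at most the 4 with the smallest adjusted p, and the 5 genes most like Myc and RpI135. Lists were matched by symbol or ID, and symbols without a match were not analysed here. Alternatives changed the tool (DESeq2), the scaling (DESeq2 size factors or library size only), the filter (none, or a minimum of 10 counts per library), the libraries fitted (6 for each comparison, or each left out in turn), the threshold (0.01) and the model (replicate block). Removal of a length trend, leaving out the libraries lettered C and the ratios were added after the data were seen. Figures were drawn with matplotlib 3.10.9.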

Additional observations from a re-analysis of the deposited data

How the results depend on the processing

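With DILP2 and the length trend removed, 3 of the 9 genes were still called, but Myc was among them and RpI12 was not. The count of 3 called genes among the 9 moved by over 1.5 times only with the replicate letter as a block. The labels do not say that the letters mark shared cultures. All pairs lettered A and all lettered C had deviations correlated at over 0.1 and none lettered B did (6 of 9 pairs, from -0.0354 to 0.348, against -0.291 to 0.189 between letters), and 4 of 9 libraries were closest to their own letter, a hint of a letter effect in A and C that falls short of pairing all libraries. With the replicate block, 5 of the 9 genes passed with each ligand, and 2068 genes with DILP5 and 1781 with DILP2 passed over all genes, beside 1173 and 981. The pair gained was Myc (adjusted p = 0.0128 with DILP5 and 7.397e-04 with DILP2) and Mnt (0.00226 and 0.00409). The block also called 7 and 6 of the 16 Myc partners and 2 and 2 of the 5 shared subunits. An adjusted p under 0.01 left 498 and 373 genes, and 3 and 2 of the 9. With library size only, 366 genes rose and 852 fell with DILP5, beside 564 and 609, and 307 rose and 778 fell with DILP2, beside 479 and 502.

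Leaving out libraries gave 3 to 4 of the 9 genes with DILP5 and 2 to 4 with DILP2, and 622 to 1270 and 487 to 1007 over all genes. DILP5 against DILP2 gave 0 in all settings. Signs turned only for log2 differences near 0 that passed no test. Tif-IA with DILP2 was -0.035 with library size only and -0.0013 with the replicate block, and RpIII128 with DILP5 was -0.0057 with library size only. Between the ligands, RpI1 was 0.00096 and RpI135 0.0030 with the length trend removed, and RpI135 was 0.0028 with no filter. Leaving out libraries gave Tif-IA -0.16 to 0.0044 with DILP5 and -0.079 to 0.13 with DILP2, and RpIII128 -0.053 to 0.11 with DILP5. Between the ligands it gave Mnt -0.11 to 0.057, RpI1 -0.033 to 0.0066, RpI135 -0.060 to 0.038, RpI12 -0.091 to 0.13, RpIII128 -0.14 to 0.016 and Brf -0.078 to 0.0037. The cause was not tested.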
